A study of Homo sapiens with 6 samples.

Results

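The DNA repair and checkpoint genes on the array were followed in the human T cell leukaemia line Jurkat after knockdown of p65 or of RPS3. They were taken as every probe whose symbol in the platform annotation starts with RAD and a digit, XRCC, ERCC, MSH, MLH, FANC, BRCA or PARP, or is HUS1, ATM, ATR, CHEK1, CHEK2, LIG1, LIG3, LIG4, PRKDC or TP53BP1. This gave 135 of 15246 probes and 51 genes. All 51 had values on at least 2 of the 3 arrays of each siRNA and were kept, among 8797 features (genes, or probes without a symbol) kept in all. 49 of the 51 had a value on all 6 arrays, since FANCB was blank on the p65 siRNA array at 3 h and PARP15 on the RPS3 siRNA array at 6 h. 14 genes had 1 probe and 37 had at least 2. PARPBP (a partner of PARP1) and RAD52P1 (a pseudogene of RAD52, whose probes can also bind the parent transcript) entered by the first letters of their symbols.

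Each of the 6 2-colour arrays set Cy5-labelled cDNA of cells given siRNA against p65 (the RELA gene product, a subunit of NF-kB) or RPS3 (a small subunit ribosomal protein), against Cy3-labelled cDNA of cells given nonspecific siRNA. Both cultures of an array were stimulated through CD3 and CD28 with 1 ug of antibody for the same time, 1, 3 or 6 h, so every group, the controls included, was transfected and stimulated. Each siRNA had 1 array at each of the 3 times, and these 3 arrays stand as its replicates. The value of a gene is the log2 ratio of siRNA over control (below 0, lower with the siRNA), averaged over its probes after each array was centred on its median. It holds no level of either channel, and the direction is likely rather than stated. No dye swap and no array of unstimulated cells was among the arrays, the siRNA sequences were not used here, and nothing in the labels says that the cultures of the arrays were separate, so a p-value here speaks only of how far these arrays differ, which may be technical. The line is known to lack functional p53 and mismatch repair.

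Cells meet DNA damage with sensors, kinases and repair enzymes. ATM answers double-strand breaks and ATR answers stalled replication forks, the latter with the help of a ring-shaped checkpoint clamp of RAD9A, RAD1 and HUS1 that RAD17 loads; CHEK2 and CHEK1 carry the signals on and halt the cell cycle. Breaks are rejoined by homologous recombination or by end joining, crosslinks are opened by the Fanconi anaemia pathway, bulky lesions are removed by nucleotide excision repair and mispaired bases by mismatch repair. Transcripts of many replication and recombination proteins are highest in cycling cells, T cell receptor stimulation sets off NF-kB, and RPS3 has itself been described as an enzyme that cuts damaged DNA.

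Promoter windows of 250 bases before to 50 bases after the start were searched on both strands for letters of cell cycle and NF-kB elements. They were chosen because both proteins knocked down act on NF-kB and because genes of G2 and M phase stood low on the RPS3 siRNA arrays (values below). 43 of the 51 genes had a window in RefSeq, build GRCh38.p14. The E2F letters TTTGGCGC, TTTCGCGC, TTTCCCGC or TTTGCCGC were in windows of 4 of 43 genes (FANCC, LIG1, MSH6 and XRCC6; 9.3%), against 5.4% of 15843 genes. The CHR letters TTTGAA or TTCGAA, the mark of many genes of G2 and M phase, were in those of 8 genes (18.6% against 17.5%) and CCAAT in those of 22 (51.2% against 42.1%). A kB element (NF-kB) was in those of 1 gene, PARP1 (2.33% against 5.54%). Sets can share bases, since a kB element may run into E2F letters, but no match in the windows shown does. The 3 windows below are shown because PARPBP and MSH6 had the lowest mean ratios with RPS3 siRNA and PARP1 alone had the kB letters. Matches of any of the 4 sets are in capitals. In the PARPBP window (chr12:102119933-102120232, plus strand) they mark CCAAT, read on the other strand, and the CHR letters. In the MSH6 window (chr2:47782895-47783194, plus strand) they mark CCAAT on the other strand and the E2F letters. In the PARP1 window (chr1:226408044-226408343, minus strand) they mark the kB letters.
PARPBP: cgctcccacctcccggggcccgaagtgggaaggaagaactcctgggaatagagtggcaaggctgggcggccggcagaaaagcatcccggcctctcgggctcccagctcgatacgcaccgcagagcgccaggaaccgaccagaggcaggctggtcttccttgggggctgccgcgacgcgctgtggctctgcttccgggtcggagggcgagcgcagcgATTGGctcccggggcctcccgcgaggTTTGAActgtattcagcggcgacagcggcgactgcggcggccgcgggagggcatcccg
MSH6: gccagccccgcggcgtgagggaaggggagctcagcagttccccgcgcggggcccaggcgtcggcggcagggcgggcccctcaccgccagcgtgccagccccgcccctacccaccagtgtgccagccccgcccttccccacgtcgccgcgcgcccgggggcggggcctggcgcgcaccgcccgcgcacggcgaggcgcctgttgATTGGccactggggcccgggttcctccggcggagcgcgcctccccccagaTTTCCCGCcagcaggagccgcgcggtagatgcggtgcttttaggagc
PARP1: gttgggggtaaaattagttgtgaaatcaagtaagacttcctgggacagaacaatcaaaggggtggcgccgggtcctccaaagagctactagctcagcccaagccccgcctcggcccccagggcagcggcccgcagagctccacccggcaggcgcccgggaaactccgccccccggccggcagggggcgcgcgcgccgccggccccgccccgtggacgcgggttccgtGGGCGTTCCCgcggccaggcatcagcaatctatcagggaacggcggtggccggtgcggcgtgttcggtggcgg

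The arrays did not group by time alone, which bears on every result below. Over 7267 features measured on every array, the p65 array at 1 h was most like the RPS3 array at 3 h (Pearson r = 0.44 across features) and the p65 array at 3 h most like the RPS3 array at 1 h (r = 0.48), while arrays of the same time correlated at 0.163 (1 h) and 0.178 (3 h). These closer pairs are the arrays whose ID numbers in the labels fall in the same of 2 series, called runs here: run 1 held the p65 array at 1 h and the RPS3 array at 3 h, and run 2 the other 4. Both 6 h arrays belong to run 2 and correlated at 0.686, so an order of 1 h against 3 h within a siRNA cannot be told apart from the run. Times are given as labelled; whether the labels of the 1 h and 3 h arrays stand on the right arrays was not tested, and every value at 1 or 3 h rests on them. The 6 h arrays also had the most blank cells, 14.8% and 15.1% against 5.4% to 10.1%. The RPS3 probe lay between -2.53 and -1.44 on the RPS3 siRNA arrays and between 0.01 and 1.11 on the p65 siRNA arrays. RELA lay between -0.59 and -0.41 on the p65 siRNA arrays, and between -0.69 and -0.39 on the RPS3 siRNA arrays, so RELA did not separate the siRNAs. Of 16 T cell markers measured 13 lay above 0 with RPS3 siRNA and 6 with p65 siRNA. Of 13 markers of other lineages 6 and 11 did. Over all 8797 features 4763 (RPS3) and 4906 (p65) lay above 0. Ratios give no levels, so the identity of the cells could not be checked by presence of markers.

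The repair and checkpoint genes had small ratios with both siRNAs. Over the 51 genes the median log2 ratio was 0.04 with p65 siRNA (middle 50% from -0.10 to 0.12) and 0.07 with RPS3 siRNA (0.00 to 0.15), against 0.02 in both over all 8797 features. No gene of the set, and none of the 8797 features (0%), passed an adjusted p of 0.05 in the limma fit in the p65 siRNA comparison, the RPS3 siRNA comparison, their difference or the slope over time. The lowest adjusted p among the 51 genes was 0.919, 0.516, 1 and 0.189 in these 4. Genes said below to have an unadjusted p under 0.05 therefore did not pass. On single arrays the spread of the 51 genes ran from an SD of 0.17 (p65, 1 h) to 0.40 (p65, 3 h), beside 0.23 to 0.45 over all features. 2 genes were below 0 on all 6 arrays, BRCA1 and PARPBP (2 of 49, against 3.18% of features), and 4 were above 0 on all 6, ERCC1, ERCC4, PARP1 and RAD52P1 (4 of 49, against 4.35%). Blank cells bear on such patterns, since a gene's average can hold different probes on different arrays. Averaged over probes measured on every array alone, BRCA1, PARPBP and ATM were below 0 on all arrays. ERCC1 was above 0 on all, while ERCC4, PARP1 and RAD52P1 were not. Single probes did not all follow these averages. BRCA1 probe 17930_1 gave 0.08 with RPS3 siRNA at 1 h, and ERCC1 probe 17440_1 gave -0.40 (p65) and -0.28 (RPS3) at 6 h.

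**Figure D1:**
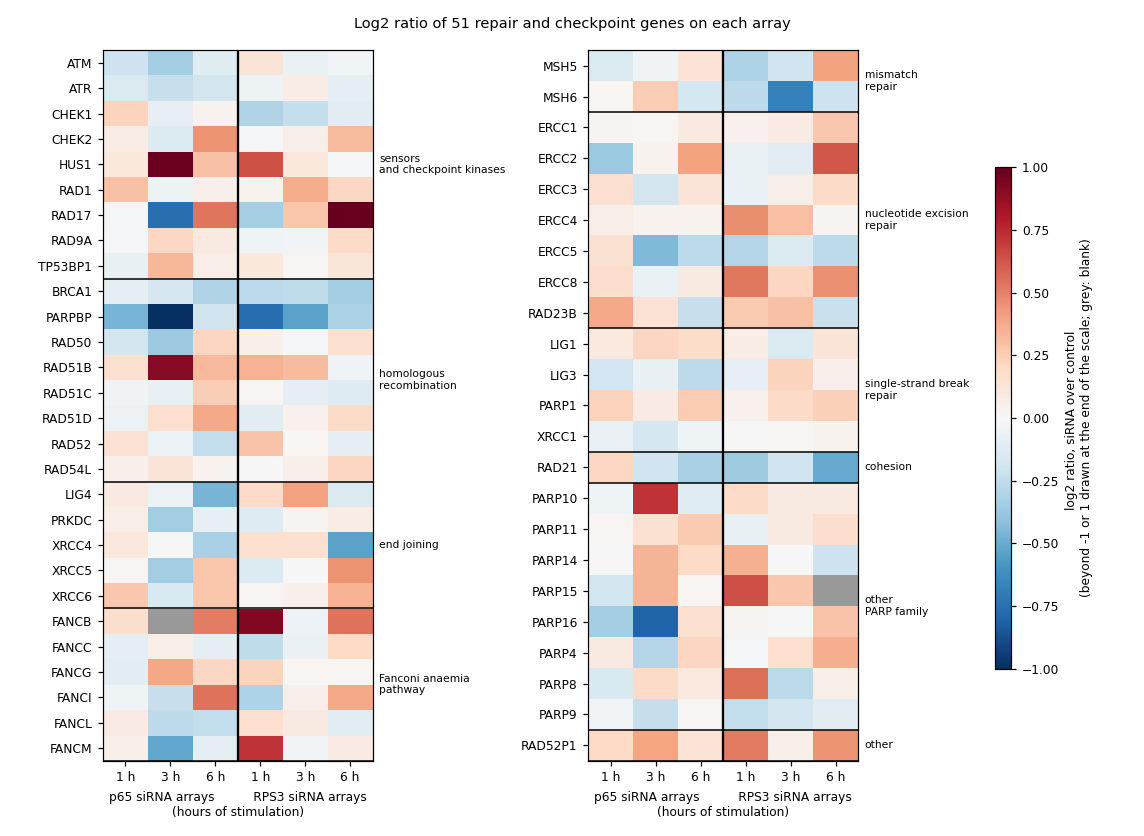
Log2 ratio of siRNA over control for each of the 51 genes (rows, by role) on each of the 6 arrays (columns, by siRNA and hours of stimulation). Red is higher and blue lower with the siRNA, grey is a blank, and values beyond 1 or -1 take the colour at the end of the scale; BRCA1 and PARPBP are blue in all 6 columns.

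With RPS3 siRNA the genes furthest below 0 at all 3 times were PARPBP, MSH6, RAD21, BRCA1 and ERCC5, and those furthest above it, at every time with a value, PARP15, ERCC8, RAD52P1, ERCC4 and RAD1. 13 of the 51 genes had a mean below 0, against 45.8% of all features. 7 of 50 were below 0 and 10 of 50 above it at all 3 times (15% and 16.2% of features). At an unadjusted p under 0.05, 4 genes were lower (PARPBP, MSH6, RAD21 and BRCA1) and 3 higher (ERCC8, PARP15 and RAD52P1), 7 of 51 (13.7%) against 7.71% of all features (3.98% lower, 3.73% higher). That count rested on single arrays, as did the share of all features. The count was 3 (6.32% of features) without the RPS3 array at 3 h, 2 (4.99%) without the one at 1 h and 4 (5.42%) without the one at 6 h.

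PARPBP binds PARP1 and restrains homologous recombination. Its log2 ratio with RPS3 siRNA was -0.77 at 1 h, -0.54 at 3 h and -0.32 at 6 h, a mean of -0.54 ± 0.22 (SD, n = 3), or 1.45-fold lower (adjusted p = 0.643). With p65 siRNA it was -0.46, -1.47 and -0.20, so the groups overlapped and PARPBP was low with both siRNAs, most of all on the p65 array at 3 h.

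BRCA1, a ubiquitin ligase subunit that promotes recombination, gave -0.26, -0.26 and -0.34 at 1, 3 and 6 h with RPS3 siRNA, a mean of -0.29 ± 0.05 (SD, n = 3; adjusted p = 0.618). With p65 siRNA it gave -0.10, -0.17 and -0.30. The RPS3 values lay lower at each time but the groups overlapped, because the p65 array at 6 h was below the RPS3 arrays at 1 and 3 h. Of its 4 probes with values on all arrays, 3 were lowest at 6 h with both siRNAs and 1 was highest there. A further probe, 17361_1, had values only on the RPS3 arrays at 1 and 3 h (-0.35 and -0.57); without it these arrays gave -0.24 and -0.18.

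MSH6, which recognises base mismatches as part of a heterodimer, lay at -0.26, -0.68 and -0.21 with RPS3 siRNA (mean -0.38 ± 0.26, SD, n = 3, adjusted p = 0.618). With p65 siRNA it lay at 0.02, 0.26 and -0.17, so every RPS3 array was below every p65 array, the closest pair being both 6 h arrays. Its probes did not act alike: probe 33234_1 gave -1.06 at 3 h with RPS3 siRNA and 0.18 at 6 h, while probe 17091_1, measured on all arrays, gave -0.29, -0.30 and -0.59 with RPS3 siRNA and 0.30, -0.14 and -0.17 with p65 siRNA.

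RAD21, the cohesin subunit that closes the ring around sister chromatids, lay at -0.35, -0.20 and -0.51 with RPS3 siRNA (mean -0.35 ± 0.15, SD, n = 3; adjusted p = 0.618). With p65 siRNA it lay at 0.21, -0.20 and -0.33, so both siRNAs gave nearly the same value at 3 h and parted most at 1 h, where 1 of its 2 probes was blank with p65 siRNA. ERCC5, the nuclease that cuts on one side of a bulky lesion, lay at -0.29, -0.13 and -0.27 with RPS3 siRNA and, with p65 siRNA, at 0.15, -0.44 and -0.27. CHEK1, the checkpoint kinase after ATR, lay at -0.30, -0.24 and -0.11 with RPS3 siRNA (mean -0.22 ± 0.09, SD, n = 3; adjusted p = 0.701) and at 0.22, -0.08 and 0.04 with p65 siRNA. Every RPS3 array of CHEK1, which has 1 probe, was below every p65 array.

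In nucleotide excision repair 6 of 7 genes had means above 0 with RPS3 siRNA (median 0.13), beside 38 of all 51. ERCC8, the CSA protein of transcription-coupled repair, had the lowest adjusted p of the 51 genes: its 1 probe gave 0.53, 0.22 and 0.45 at 1, 3 and 6 h (mean 0.40 ± 0.16, SD, n = 3; 1.32-fold higher, adjusted p = 0.516). With p65 siRNA it gave 0.18, -0.07 and 0.09, all 3 below the lowest RPS3 array. ERCC4, the XPF nuclease, gave 0.47, 0.30 and 0.02 with RPS3 siRNA and between 0.03 and 0.06 with p65 siRNA, overlapping at 6 h. Only 1 of its 3 probes had values on every array, and that probe gave 0.06, -0.48 and -0.34 with p65 siRNA and -0.14, 0.30 and 0.23 with RPS3 siRNA, so the steady p65 average of ERCC4 comes from averaging different probes. ERCC1, the partner of ERCC4, gave 0.05, 0.08 and 0.27 with RPS3 siRNA and between 0.02 and 0.09 with p65 siRNA.

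PARP15, a mono(ADP-ribosyl) transferase, gave 0.65 and 0.27 at 1 and 3 h with RPS3 siRNA and was blank at 6 h, so its mean of 0.46 rests on 2 arrays (adjusted p = 0.631); with p65 siRNA it gave -0.19, 0.34 and 0.02. RAD52P1 gave 0.52, 0.06 and 0.45 with RPS3 siRNA (mean 0.34 ± 0.25, SD, n = 3; adjusted p = 0.618) and 0.20, 0.39 and 0.14 with p65 siRNA. Its parent RAD52, an annealing protein, gave 0.28, 0.02 and -0.09 with RPS3 siRNA, so the pseudogene's probes and those of the parent differed most at 6 h. RAD1 gave 0.03, 0.37 and 0.21 with RPS3 siRNA and 0.29, -0.05 and 0.05 with p65 siRNA, overlapping groups.

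**Figure D2:**
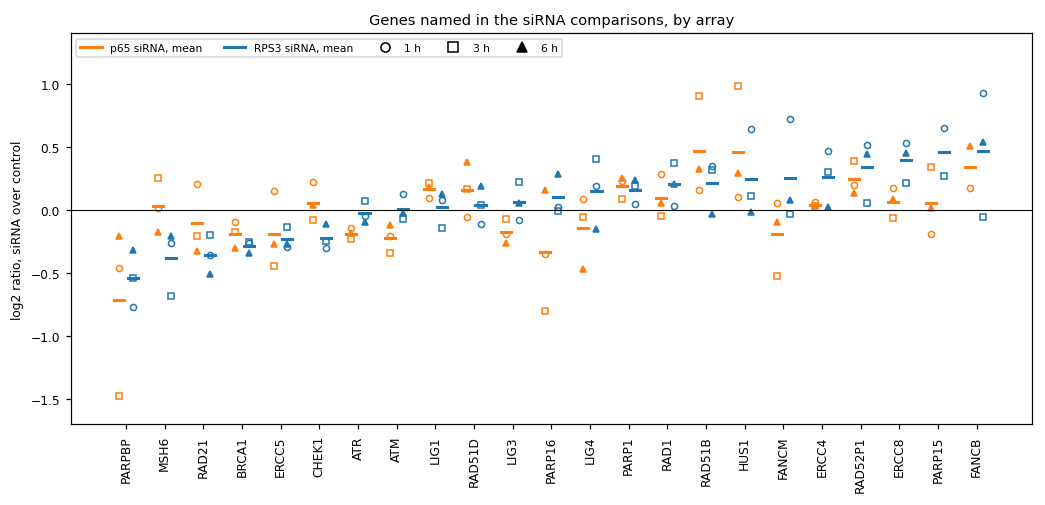
Log2 ratio of siRNA over control on each array (open circle 1 h, open square 3 h, filled triangle 6 h) with the mean of each siRNA as a bar, for the genes named in the siRNA comparisons, ordered by their mean with RPS3 siRNA. The RPS3 points (blue) of MSH6 and CHEK1 lie below all their p65 points (orange), those of ERCC8 above, and PARPBP has the lowest single point, -1.47.

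With p65 siRNA the genes furthest below 0 at all 3 times were PARPBP, ATM, BRCA1, ATR and LIG3, and the genes furthest above it, at every time with a value, were RAD51B, HUS1, FANCB, RAD52P1 and PARP1. 21 of the 51 genes had a mean below 0, against 44.2% of all features. 6 of 50 were below 0 and 9 of 50 above it at all 3 times (9.39% and 13.4% of features). At an unadjusted p under 0.05, 1 gene was lower, PARPBP, and 1 higher, RAD51B, which is 2 of 51 (3.92%) against 5.06% of all features (2.41% lower, 2.65% higher). The count was 4 (6.98% of features) without the p65 array at 1 h and 0 (2.68%) without the one at 3 h.

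PARPBP had a mean of -0.71 ± 0.67 (SD, n = 3), 1.64-fold lower (adjusted p = 0.919). RAD51B, a factor of homologous recombination, gave 0.16, 0.91 and 0.33 at 1, 3 and 6 h (mean 0.46 ± 0.39, SD, n = 3; adjusted p = 0.919) and with RPS3 siRNA 0.35, 0.32 and -0.03. HUS1, of the checkpoint clamp, gave 0.10, 0.98 and 0.29 with p65 siRNA (mean 0.46 ± 0.46, SD, n = 3; adjusted p = 0.919) and with RPS3 siRNA 0.64, 0.11 and -0.02. For all 3 of these genes the 3 h array of p65 siRNA was the most extreme, and their groups overlapped. Without it their p65 means were -0.33, 0.24 and 0.20 (PARPBP, RAD51B and HUS1). That array also had the widest spread over all features, an SD of 0.45, and the highest median of markers of other cell lineages, 0.36 over 13 genes against -0.08 to 0.04 on the other 5; their part in these values was not tested.

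Both apical kinases lay below 0 with p65 siRNA. ATR gave -0.15, -0.23 and -0.19 at 1, 3 and 6 h with p65 siRNA (mean -0.19 ± 0.04, SD, n = 3; adjusted p = 0.919) and -0.05, 0.07 and -0.10 with RPS3 siRNA, with no overlap. ATM gave -0.21, -0.34 and -0.12 with p65 siRNA (mean -0.22 ± 0.11, SD, n = 3; adjusted p = 0.919) and 0.13, -0.07 and -0.03 with RPS3 siRNA, again with no overlap. For both genes the gap at 1 h rests on probes with blanks elsewhere. Over probes measured on every array, ATR gave 0.01 (p65) and 0.01 (RPS3) at 1 h, and ATM gave -0.04 and -0.15, so that the groups of both overlapped. LIG3, the ligase that works with XRCC1, gave -0.19, -0.07 and -0.27 with p65 siRNA and -0.08, 0.22 and 0.05 with RPS3 siRNA.

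PARP1, the main poly(ADP-ribose) polymerase at breaks and the gene whose window held the kB letters, gave 0.23, 0.08 and 0.26 with p65 siRNA (mean 0.19 ± 0.09, SD, n = 3, adjusted p = 0.919). With RPS3 siRNA it gave 0.05, 0.19 and 0.24 (mean 0.16 ± 0.10, SD, n = 3), so its groups overlapped and all 6 values were above 0; over the 2 probes measured on every array, the p65 array at 3 h (-0.01) and the RPS3 array at 1 h (-0.07) were below it. LIG1, the ligase of replication, gave 0.10, 0.22 and 0.19 with p65 siRNA and 0.08, -0.14 and 0.13 with RPS3 siRNA. FANCB, a core complex subunit of the Fanconi anaemia pathway, gave 0.17 and 0.51 at 1 and 6 h with p65 siRNA, a mean of 0.34 over 2 arrays, and 0.93, -0.06 and 0.54 with RPS3 siRNA.

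PRKDC, the catalytic subunit of the DNA-dependent protein kinase, had means of -0.12 ± 0.21 with p65 siRNA and -0.01 ± 0.11 with RPS3 siRNA (SD, n = 3 each). TP53BP1, a chromatin reader that favours end joining, had means of 0.11 ± 0.21 and 0.08 ± 0.06, and XRCC6, the Ku70 end-binding protein, 0.13 ± 0.25 and 0.14 ± 0.18 (SD, n = 3 each, p65 siRNA first). The average of XRCC1, the scaffold of single-strand break repair, varied least with RPS3 siRNA, between -0.01 and 0.04. With p65 siRNA it lay between -0.17 and -0.04. Its 3 probes were not steady: at 6 h with RPS3 siRNA they gave -0.06, -0.25 and 0.42.

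The difference between the siRNAs, RPS3 minus p65, leaves out any dye effect common to the arrays. No gene of the 51 reached even an unadjusted p under 0.05 (0 of 51, against 2.35% of features, 1.1% higher and 1.25% lower), and none of 8797 features passed in limma (0 features). 22 of the 51 differences were below 0 (50.6% of features); 6 of 49 genes were lower with RPS3 siRNA at every time and 11 of 49 higher (15.9% and 12.9% of features). MSH6 and ERCC8 had the lowest unadjusted p. For MSH6 the difference was -0.28 at 1 h, -0.94 at 3 h and -0.03 at 6 h (mean -0.42, 95% interval -0.88 to 0.05, adjusted p = 1). Within runs it was -0.70 (run 1) and -0.28 (run 2). For ERCC8 it was 0.35, 0.28 and 0.36 at the 3 times (mean 0.33, interval -0.05 to 0.72, adjusted p = 1), but within runs 0.04 and 0.48. CHEK1 differed by -0.52, -0.16 and -0.15 (mean -0.28, interval -0.65 to 0.09, adjusted p = 1) and by -0.46 and -0.18 within runs.

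RPS3 siRNA arrays lay wholly below p65 siRNA arrays for 2 of 49 genes (4.82% of features), CHEK1 and MSH6. They lay wholly above for 4 of 49 (3.11% of features), ATM, ATR, ERCC8 and XRCC1. Over probes measured on every array, CHEK1 and MSH6 still lay wholly below, and ERCC8 and XRCC1, but not ATM and ATR, wholly above. For XRCC1 this held only for the average of its 3 probes, since each probe by itself overlapped between the siRNAs. Its probe 28333_1 gave -0.13, -0.24 and -0.39 with p65 siRNA and 0.16, 0.04 and -0.25 with RPS3 siRNA. FANCM, a translocase that recruits the core complex, and PARP16, a transferase of the endoplasmic reticulum, had the highest mean differences among genes higher at each time. FANCM differed by 0.67, 0.49 and 0.18 (mean 0.44) and PARP16 by 0.37, 0.80 and 0.12 (mean 0.43). Both have 1 probe, and FANCM went the other way within run 1, -0.08. The ligases LIG4, of end joining, and LIG3 differed by 0.29 and 0.24 on average, and the 5 end joining genes ranged from 0.00 (XRCC4) to 0.29 (LIG4). Of these LIG4 alone was above 0 within both runs; PRKDC (-0.04), XRCC5 (-0.01) and XRCC6 (-0.22) were below 0 within run 1 and XRCC4 (-0.02) within run 2. LIG1, RAD51D and BRCA1 were lower with RPS3 siRNA at each time, by means of -0.15, -0.12 and -0.10. RAD17 had the highest difference of all 51 genes, 0.60, with an interval of -0.60 to 1.81, and went from -0.32 at 1 h to 1.03 and 1.10 at 3 and 6 h.

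Over time the 6 h arrays stood apart from the earlier ones over all features, while 0 of the 51 genes passed, or 4 at 6 h once run was a covariate. The slope per hour, with both siRNA means in the fit, had an unadjusted p under 0.05 for 7 of 51 genes (13.7%), beside 19.1% of all features (12.1% positive, 7% negative); 4 were positive (ERCC2, FANCI, RAD17 and MSH5) and 3 negative (RAD23B, XRCC4 and LIG4). No feature passed with all arrays, and 301 did without the p65 array at 1 h. The count of genes was 0 (4.04% of features) without the RPS3 array at 6 h, 2 (7.68%) without the p65 array at 6 h and 4 (16.8%) without the RPS3 array at 1 h. A contrast of 6 h against the mean of 1 and 3 h, added after the data were seen, called 398 of 8608 features (4.62%), 381 higher and 17 lower at 6 h, and 0 of the 51 genes. At an unadjusted p under 0.05 stood 10 of 51 genes (19.6%; 7 higher, 3 lower) against 26.7% of features (16.5% higher, 10.2% lower): RAD17, ERCC2, FANCI, XRCC5, MSH5, CHEK2 and PARP16 higher, and XRCC4, RAD23B and LIG4 lower. The features called numbered 3 without the p65 array at 6 h, 2 without the RPS3 array at 6 h, 39 without the RPS3 array at 3 h, 56 without the one at 1 h and 234 without the p65 array at 3 h. Both 6 h arrays are in run 2, and with run as a covariate, which sets them against the 2 earlier arrays of that run, 1047 of 8567 features (12.2%) and 4 of the 51 genes were called at 6 h. The 4 were RAD17 (1.62, adjusted p = 0.0188), FANCI (0.74, 0.0318) and XRCC5 (0.61, 0.0433), which were higher, and HUS1 (-0.67, 0.045), which was lower. Of the 51 genes 22 had a negative slope (50.5% of features) and 22 a negative change at 6 h (51.7%). Genes with at least 2 probes had a middle 50% from -0.18 to 0.14 in this contrast, against -0.22 to 0.27 for other features with as many probes. The 14 genes with 1 probe had a middle 50% from -0.04 to 0.49, against -0.27 to 0.27 for other features with 1 probe.

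RAD17, the loader of the checkpoint clamp, had the highest change at 6 h. Its 1 probe gave -0.02, -0.75 and 0.54 at 1, 3 and 6 h with p65 siRNA. With RPS3 siRNA it gave -0.33, 0.28 and 1.63. Both 6 h arrays were above all 4 earlier ones, and the fitted change was 1.29 ± 0.30 (SE), or 2.44-fold (adjusted p = 0.0691). It passed in 5 of 14 alternatives: with run as a covariate, without both arrays of run 1, without the p65 array at 1 h, over features with values on all arrays and over such probes (adjusted p from 0.0188 to 0.035). In the other alternatives its adjusted p reached 0.527 (without the RPS3 array at 6 h). The slope, 0.27 per hour over all arrays, passed without the p65 array at 1 h (0.41, adjusted p = 0.0324). CHEK2, the kinase after ATM, gave 0.07, -0.15 and 0.45 with p65 siRNA and -0.02, 0.06 and 0.32 with RPS3 siRNA (fitted change 0.39 ± 0.14, SE, adjusted p = 0.139). Of the clamp genes themselves, HUS1 had a fitted change of -0.32 (p65 -0.25, RPS3 -0.39; adjusted p = 0.504). Within run 2 its change was larger, -0.69 with p65 siRNA and -0.66 with RPS3 siRNA, and it passed with run as a covariate, as given above. RAD1 was at -0.07 and 0.00, and RAD9A at -0.01 and 0.23 (p65 and RPS3 siRNA).

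The end joining genes lay on both sides at 6 h. XRCC4, the scaffold of ligase IV, gave 0.10, 0.00 and -0.32 with p65 siRNA and 0.16, 0.16 and -0.53 with RPS3 siRNA (fitted change -0.53 ± 0.14, SE, 1.44-fold lower, adjusted p = 0.0817). LIG4, its partner ligase, gave 0.09, -0.06 and -0.47 with p65 siRNA and 0.19, 0.40 and -0.15 with RPS3 siRNA (fitted change -0.46 ± 0.14, SE, adjusted p = 0.101). For both genes the 6 h arrays were below all 4 earlier ones. XRCC5, the Ku80 end-binding protein, went the other way: 0.01, -0.35 and 0.28 with p65 siRNA and -0.14, 0.01 and 0.45 with RPS3 siRNA (fitted change 0.48 ± 0.15, SE, adjusted p = 0.119). Its partner XRCC6 gave 0.27, -0.15 and 0.28 with p65 siRNA and 0.02, 0.05 and 0.35 with RPS3 siRNA, also above all earlier arrays at 6 h, though by under 0.01 with p65 siRNA. PRKDC at 6 h differed from the earlier mean by 0.06 with p65 siRNA and 0.13 with RPS3 siRNA.

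In nucleotide excision repair, RAD23B, a partner of the lesion sensor XPC, and ERCC2, the XPD helicase of TFIIH, lay on opposite sides of 0 at 6 h. RAD23B gave 0.38, 0.14 and -0.23 with p65 siRNA and 0.27, 0.30 and -0.22 with RPS3 siRNA, so both siRNAs gave nearly the same value at 6 h (fitted change -0.50 ± 0.13, SE, adjusted p = 0.0859). ERCC2 gave -0.37, 0.03 and 0.41 with p65 siRNA and -0.07, -0.11 and 0.62 with RPS3 siRNA (fitted change 0.64 ± 0.16, SE, 1.56-fold, adjusted p = 0.074). Of the 3 ERCC2 probes only 16314_1 had values at 6 h; on that probe alone p65 siRNA gave -0.19, 0.49 and 0.41, so the order of 3 and 6 h depends on which probes were averaged. The average of ERCC1 was highest at 6 h with both siRNAs, at 0.07 (p65) and 0.21 (RPS3) over the mean of 1 and 3 h. Of its 6 probes 3 were highest at 6 h with both siRNAs and 1, 17440_1, was lowest there with both.

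FANCI, the partner of the central Fanconi anaemia protein, gave -0.04, -0.23 and 0.54 with p65 siRNA and -0.31, 0.06 and 0.38 with RPS3 siRNA (fitted change 0.59 ± 0.16, SE, 1.51-fold, adjusted p = 0.0878). The other 5 genes of that pathway had fitted changes between -0.20 (FANCL) and 0.21 (FANCB). MSH5, a meiotic MutS homolog, gave -0.15, -0.04 and 0.14 with p65 siRNA and -0.31, -0.20 and 0.41 with RPS3 siRNA (fitted change 0.44, adjusted p = 0.134). PARP16 gave -0.35, -0.80 and 0.16 with p65 siRNA and 0.02, -0.01 and 0.28 with RPS3 siRNA (fitted change 0.50, adjusted p = 0.157).

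In homologous recombination, 5 of 8 genes had fitted changes above 0. RAD50, a subunit of the complex that binds break ends, differed at 6 h by 0.49 (p65) and 0.15 (RPS3), RAD51D by 0.33 and 0.22, and PARPBP by 0.77 and 0.33, the last from its low values at 1 and 3 h. RAD51B differed by -0.21 and -0.37, and RAD52 by -0.29 and -0.24. In all, both 6 h arrays were above the 4 earlier ones for 15 of 49 genes (30.6%, against 22.4% of features) and below them for 5 of 49 (10.2%, against 19.1%); those below were BRCA1, LIG4, RAD23B, RAD52 and XRCC4. Taking each siRNA by itself, 6 h was the highest of the 3 times with both siRNAs for 17 of 49 genes (27.6% of features) and the lowest for 7 of 49 (26.1%). Within run 2 alone, both 6 h arrays can be set against 1 earlier array of each siRNA. There the signs of RAD17, FANCI, XRCC5, XRCC4, RAD23B and LIG4 were the same with both siRNAs. RAD17 differed by 1.29 (p65, 6 h minus 3 h) and 1.96 (RPS3, 6 h minus 1 h), and XRCC4 by -0.32 and -0.69. The average of ERCC2 also kept its sign, but its only probe with 6 h values, 16314_1, did not. That probe went from 0.49 to 0.41 with p65 siRNA and from 0.02 to 0.62 with RPS3 siRNA. All these genes were picked by their values over time on these same arrays, so the shared signs are no separate support.

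**Figure D3:**
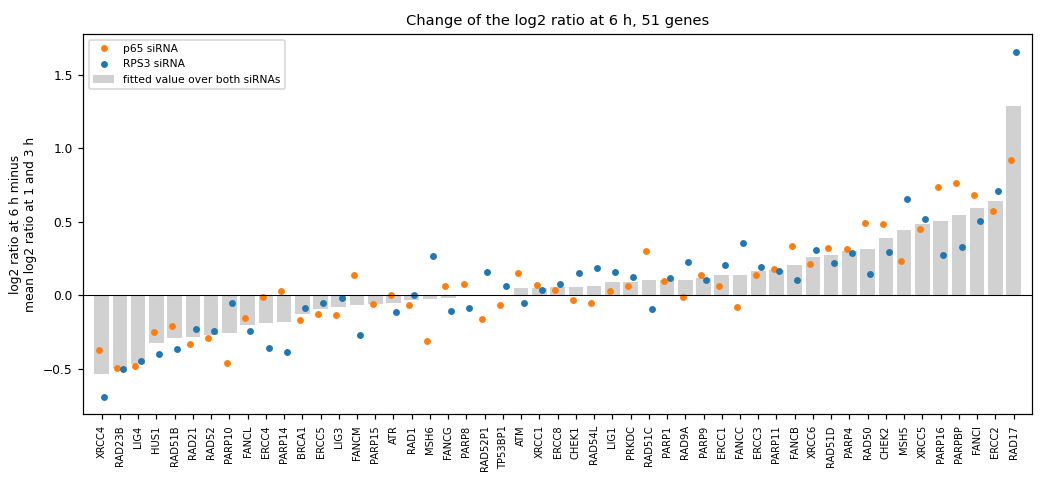
Log2 ratio at 6 h minus the mean log2 ratio at 1 and 3 h for each of the 51 genes, fitted over both siRNAs (grey bars) and for p65 siRNA (orange) and RPS3 siRNA (blue) alone. XRCC4, RAD23B and LIG4 lie at the low end and RAD17, ERCC2 and FANCI at the high end, with both siRNAs on the same side of 0 for each of these 6.

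Single probes showed which of these values rest on several spots. All 7 XRCC4 probes were lowest at 6 h with RPS3 siRNA and 6 of 7 with p65 siRNA. All 4 RAD23B probes were lowest at 6 h with both siRNAs, between -0.31 and -0.11. Of 5 XRCC5 probes with values on all arrays, 5 were highest at 6 h with RPS3 siRNA and 3 with p65 siRNA. Its probe 35507_1 spanned the widest range, at -0.54, -0.88 and 0.45 with p65 siRNA and -0.52, -0.21 and 0.77 with RPS3 siRNA. Probe 36659_1, also low at 1 h (-0.45 and -0.54), was blank on the p65 array at 3 h and is not in the gene's average there.

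The 8 ATM probes split. Probe 31475_1 had values only at 1 h, -0.50 with p65 siRNA and 1.63 with RPS3 siRNA. Probe 29351_1 gave -0.32, -0.69 and 0.52 with p65 siRNA and -0.53, -0.09 and 0.52 with RPS3 siRNA, while probe 28860_1 gave 0.05, 0.10 and -0.60 and, with RPS3 siRNA, -0.22, 0.03 and -0.49. Of the 6 with values on all arrays, 2 were lowest and 2 highest at 6 h with both siRNAs, so the average of ATM near 0 at 6 h averages probes of opposite sign. For CHEK2 2 of 4 probes were highest at 6 h with both siRNAs. These were 37784_1, at 1.14 and 0.88 at 6 h (p65 and RPS3 siRNA), and 37912_1, at 0.51 and 0.18. Probe 38151_1 stayed at -0.04 and -0.12. With each probe tested singly, 717 of 13276 probes (5.4%) were called in the 6 h contrast, among them 3 of 129 probes of the set, of ATM (29351_1), XRCC5 (35507_1) and CHEK2 (37784_1). The median SD between probes of a gene was 0.0778 with RPS3 siRNA and 0.117 with p65 siRNA over 32 genes of the set, beside 0.0943 and 0.099 over 1917 genes.

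**Figure D4:**
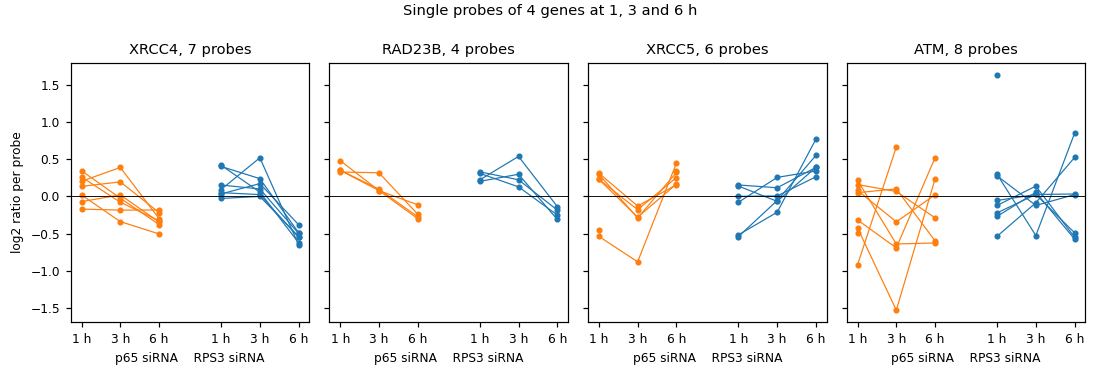
Log2 ratio of every probe of XRCC4, RAD23B, XRCC5 and ATM at 1, 3 and 6 h, with p65 siRNA in orange and RPS3 siRNA in blue; a line joins the values of 1 probe. All probes of XRCC4 and RAD23B are below 0 at 6 h, while those of ATM spread, from -0.62 to 0.52 with p65 siRNA.

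The rest of the pathway was read from a list of 133 other repair and checkpoint genes, of which 77 were tested. With RPS3 siRNA none passed (0 of 77); 3 of 77 had an unadjusted p under 0.05, a share below the 7.71% of all features, and were lower: POLQ, the polymerase of microhomology end joining (-0.46, -0.43 and -0.69 at 1, 3 and 6 h; adjusted p = 0.492), FEN1, the flap nuclease of replication (-0.69, -0.55 and -0.13), and H2AX, the histone that ATM marks at breaks (-0.31, -0.20 and -0.23). With p65 siRNA none passed (0 of 77). At an unadjusted p under 0.05 stood 4 of 77, a share near the 5.06% of all features: WRN, a RecQ helicase, and UBE2V1, a ubiquitin conjugation cofactor, were lower (means -0.32 and -0.33) and the base excision glycosylase NTHL1 and the lesion sensor DDB2 higher (0.25 and 0.26). At 6 h against 1 and 3 h, 5 of 77 passed (4.62% of features were called), all higher: the nuclease DCLRE1C of end joining (fitted change 1.01, adjusted p = 0.0184), BRCC3 of the BRCA1 complex (0.92, 0.0228), SMC5 (1.05, 0.0342), the ATR activator TOPBP1 (1.07, 0.0414) and the TFIIH subunit GTF2H3 (0.93, 0.0417). TOPBP1 gave -0.60, -1.04 and 0.22 with p65 siRNA and -1.01, -0.53 and 0.33 with RPS3 siRNA. These calls carry the limit on single arrays given above for that contrast.

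Genes of G2 and M phase lay low with RPS3 siRNA, while those of S phase had a median of -0.07. With RPS3 siRNA all 32 measured genes of G2 and M phase had means below 0, against 45.8% of all features, with a median of -0.41. At an unadjusted p under 0.05, 20 of the 32 were lower, against 3.98% of all features. None of them passed in limma (lowest adjusted p = 0.464). With p65 siRNA 21 of 32 were below 0, against 44.2% of all features, with a median of -0.10. By array the median of these genes was -0.52, -0.34 and -0.48 at 1, 3 and 6 h with RPS3 siRNA, and 0.06, -0.27 and -0.07 with p65 siRNA. The 20 genes of S phase had medians of -0.07 (RPS3) and 0.07 (p65), with 12 and 4 of 20 below 0. With RPS3 siRNA 3 of the 20 were lower and 0 higher at an unadjusted p under 0.05 in limma, and none passed. By array their median was -0.22, -0.16 and 0.06 at 1, 3 and 6 h with RPS3 siRNA, and 0.05, -0.10 and 0.27 with p65 siRNA. 7 of 50 repair and checkpoint genes were below 0 on all RPS3 siRNA arrays (14%, against 15% of features), as was the median of the G2 and M phase genes: BRCA1, CHEK1, ERCC5, MSH6, PARP9, PARPBP and RAD21; the part of the cell cycle in their values was not tested.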

How the data were processed

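The deposited table held log ratios of both channels per probe, with no base named, read here as log2 (sizes and folds would be larger were they natural logs); image analysis, background correction, normalization and the rule for blank cells are not stated in what was used here. Deposited medians lay between -0.0185 and 0.007; whether the authors centred the values is not stated. Channel signals were not used here, so precision is limited by having few arrays. Each array was centred on its median, probes of 1 symbol were averaged, and features with values on at least 2 of 3 arrays of each siRNA were fitted with limma 3.58.1 (lmFit and eBayes, R 4.3.3) over all 6 arrays, with Benjamini-Hochberg adjustment over all features and a threshold of 0.05. Testing a ratio against 0 takes no account of spread among controls. The members and lists were chosen with earlier results of these data known. Genes named were the 15 members among a fixed list of 20 symbols, the 5 highest and 5 lowest means of 1 sign (3 for the slope) and members with an unadjusted p under 0.05; others were named after their values were seen (RAD17 and XRCC1 in the siRNA comparisons, and the probes and genes of the 6 h contrast). Time points were not taken as pairs in the reported fit. Deviations of same-time arrays correlated at 0.01 (1 h) and 0.0961 (3 h), but at 0.756 at 6 h, so that fit leaves a shared 6 h change in its spread. With the time point as a block, 8.73% (p65), 13.1% (RPS3) and 5.49% (difference) of features had an unadjusted p under 0.05 in limma. Without it the shares were 5.06%, 7.71% and 2.35%. Members at that level with the block numbered 3, 7 and 2 of 51, and none passed.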

Additional observations from a re-analysis of the deposited data

How the results depend on the processing

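Results on named genes were of 2 kinds. Of 721 values of the 47 results named by rank or by an unadjusted p, 707 kept their sign and stayed short of the threshold, 12 passed where the reported fit did not, and 2 turned sign. The other 22 results are means of genes named by the fixed list alone, and 0 of their 352 values passed. They stayed within 1 SD of the reported mean except for TP53BP1 with RPS3 siRNA, which moved to 0.157 with complete probes only. Their direction was not kept: 11 of the 22 turned sign under at least 1 alternative (33 of 352 values), those of ATM, ATR, LIG1 and PRKDC with RPS3 siRNA, of CHEK1, CHEK2, MSH6, RAD21 and TP53BP1 with p65 siRNA, and of XRCC5 with both, all within 0.126 of 0 as reported. The 12 are values of RAD17, FANCI, XRCC4, XRCC5 and ERCC2 at 6 h and of the slope of RAD17. The 2 that turned sign were the slopes of LIG4 and RAD17 without both 6 h arrays, at 0.01712 and -0.03113.

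Counts of features called, members at an unadjusted p under 0.05 and member medians moved as follows; the cause was not tested. With single probes tested, members numbered 6 with p65 siRNA (5.25% of all probes) and 24 for the slope (19.8%, median 0.002375), from 131 probes in place of 51 genes. At 6 h they numbered 33 of 129 (27.1% of all probes, median 0.004286), and 717 of 13276 probes were called. Without both 6 h arrays, 1 feature passed with RPS3 siRNA and 1 for the slope. Members then numbered 4 with RPS3 siRNA (7.64% of all features, median 0.0245), 2 for the difference (2.6%) and 2 for the slope (1.88%, median -0.03113). Without both arrays of run 1, chosen after seeing the data, members numbered 1 with p65 siRNA (4.22% of all features) and 4 with RPS3 siRNA (5.34%). The median difference was 0.07925, and 807 of 8486 features were called at 6 h, with 2 of 51 members (FANCI and RAD17). With the time point as a replicate block, 1 feature passed with RPS3 siRNA and 1 in the difference, with 2 members at an unadjusted p under 0.05 in the difference. Quantile normalization gave 1 feature with RPS3 siRNA and medians of 0.002042 (slope) and 0.01029 (6 h), values as deposited a median slope of 0.01034, and the median of probes a 6 h median of 0.01063. At 6 h, 1047 of 8567 features (12.2%) were called with run as a covariate, with 4 of 51 members (7.84%), FANCI, HUS1, RAD17 and XRCC5. With complete features 746 of 7267 were called, with 2 of 49 members, ERCC2 and RAD17. With complete probes 838 of 7189 were called, with 3 of 49 members, FANCI, RAD17 and XRCC4.

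Leaving out each array in turn gave these ranges. With p65 siRNA, 0 to 1 features passed and 0 to 4 members had an unadjusted p under 0.05, beside 2.68% to 6.98% of all features. With RPS3 siRNA these were 0 to 1 features and 2 to 8 members, beside 4.99% to 8.03% of all features, with a member median of 0.0245 to 0.098. In the difference, 0 to 1 members and a median of -0.02375 to 0.07667; for the slope, 0 to 301 features, 0 to 10 members and a median of 0.004848 to 0.01601. At 6 h the ranges were 2 to 432 features, 2 to 15 members and a median of 0.034 to 0.1052. The 301 features came without the p65 array at 1 h, and 1 of them was RAD17. 

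Signal over background and the level of each gene were not measured here, times have 1 array per siRNA, and 6 h against earlier times rests on 2 arrays of run 2. Ratios of a gene with few probes vary with blank cells. Times and runs can be separated only in part, and 1 library per time gives no replicate check at a time.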
